A study of Mus musculus with 4 samples.

Results

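The genes of the interstitial collagens I, III, V and VI were followed in infarcted mouse hearts by spatial transcriptomics. The 8 members, Col1a1, Col1a2, Col3a1, Col5a1, Col5a2, Col6a1, Col6a2 and Col6a3, were taken by symbol from 32285 genes, and all 8 were among the 4769 genes with at least 1000 unique molecular identifiers (UMIs, each standing for 1 captured RNA molecule) that were tested. The data were 4 Visium sections, each from the heart of 1 adult ICR mouse, 12 weeks old by the design text, whose left anterior descending coronary artery (LAD) had been tied off for good. The hearts were taken 1, 4, 7 and 14 days after this myocardial infarction (MI). All 4 mice had the ligation and no uninjured or sham heart was analysed here, so that each section served as its own control, and with 1 section per day no test between days was possible.

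Collagens I and III are the main fibril-forming collagens of the heart wall and of the infarct scar. Collagen I is a trimer of α1 (Col1a1) and α2 (Col1a2) chains, collagen III is a trimer of a single chain (Col3a1), and collagen V (Col5a1 and Col5a2) sits inside collagen I fibrils and governs how they start and how thick they grow. Collagen VI (Col6a1, Col6a2 and Col6a3) forms beaded microfilaments around cells and next to basement membranes. All are made chiefly by fibroblasts and, after MI, by the activated fibroblasts called myofibroblasts.

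Within each section, spots were ranked on the share of their UMIs from Myh6 and Myl2, the main cardiac myosin heavy chain and a ventricular myosin light chain, and cut into quartiles. The lowest quartile held the spots with the least of these cardiomyocyte transcripts and the highest quartile the spots with the most. Spots with over 1% hemoglobin UMIs were left out first, which removed 1599 spots in all and kept 1890, 1679, 1848 and 2086 spots on days 1, 4, 7 and 14, with 11952107, 14350489, 9292678 and 15713779 UMIs. The Myh6 and Myl2 share of the lowest quartile was 0.773%, 0.271%, 0.229% and 1.53% on these days, against 2.82%, 2.57%, 2.80% and 2.56% in the highest quartile. The day 14 lowest quartile thus held more cardiomyocyte transcripts than those of the other days. All 6 other cardiomyocyte markers (Tnnt2, Actc1, Tnni3, Ttn, Ryr2 and Tnnc1) were present in every quartile of every section. The barcodes, which mark positions on the slide, were shared by 1572 to 1918 spots per pair of sections, as every slide carries the same set.

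The 8 genes lay on 5 chromosomes, with neighbours among them. In GENCODE vM21 on GRCm38 (mm10), Col3a1 spanned chr1:45311538-45349706 and Col5a2 followed on the opposite strand at chr1:45374321-45503282, 24615 bases away. Col6a2 (chr10:76595762-76623630) and Col6a1 (chr10:76708792-76726168) shared the minus strand with 85162 bases between them. Col6a3 was at chr1:90765923-90843971, Col5a1 at chr2:27886425-28039514, Col1a2 at chr6:4504814-4541544 and Col1a1 at chr11:94936224-94953042.

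Promoter sequence from RefSeq (GRCm38.p6) was matched for 6 of the 8 genes, the others being Col1a1 and Col5a2. The 250 bases before the start are shown for 1 gene each of the collagens III, V and VI, to set side by side the letters in front of genes whose levels moved together below. These windows lay at chr1:45311288-45311537 (plus strand, Col3a1), chr2:27886175-27886424 (plus strand, Col5a1) and chr1:90843972-90844221 (minus strand, Col6a3). Capitals mark 3 motifs searched on both strands, TATAAA (the core of the TATA box), CCAAT and GGGCGG (the GC box, read as CCGCCC on the other strand).
Col3a1: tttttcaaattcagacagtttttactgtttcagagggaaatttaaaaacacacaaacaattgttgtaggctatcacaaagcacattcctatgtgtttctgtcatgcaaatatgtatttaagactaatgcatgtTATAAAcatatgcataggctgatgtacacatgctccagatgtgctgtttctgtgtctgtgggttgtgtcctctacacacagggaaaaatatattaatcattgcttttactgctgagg
Col5a1: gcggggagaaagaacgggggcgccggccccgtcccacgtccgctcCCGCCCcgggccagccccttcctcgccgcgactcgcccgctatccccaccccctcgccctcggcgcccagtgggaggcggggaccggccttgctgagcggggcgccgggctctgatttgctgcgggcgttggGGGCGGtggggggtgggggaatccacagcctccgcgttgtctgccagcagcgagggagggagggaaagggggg
Col6a3: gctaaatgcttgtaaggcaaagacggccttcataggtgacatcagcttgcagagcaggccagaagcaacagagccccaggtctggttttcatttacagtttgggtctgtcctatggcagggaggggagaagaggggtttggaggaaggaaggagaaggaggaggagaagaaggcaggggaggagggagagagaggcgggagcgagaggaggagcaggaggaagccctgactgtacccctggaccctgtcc
The Col3a1 window held TATAAA at -117, a motif found in 12.4% of 32851 promoter windows of this length. Such shares count a motif at any position and on either strand. Whether this TATAAA works as a TATA box was not tested. The Col5a1 window held GGGCGG at -205 on the minus strand and at -73 on the plus strand, a motif of 32.7% of windows. The Col6a3 window held none of the 3. The windows of Col1a2, Col6a1 and Col6a2 were searched but not printed. The Col1a2 window, which overlaps transcripts that GENCODE starts further upstream, held CCAAT at -109 of the RefSeq start, a motif of 33.8% of windows, and GGGCGG at -205 and -188. Both Col6a2 windows held GGGCGG and the Col6a1 window held none of the 3. No motif searched was present in all of these windows.

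The fibrillar chains were far more abundant where cardiomyocyte transcripts were scarce. Between quartiles the contrast was largest on days 4 and 7, an order of days that depended on where the spots were cut (see the deciles below). Col1a1, the α1 chain of collagen I, stood at 347, 8772, 11484 and 1375 counts per 1000000 UMIs (CPM) in the lowest quartile on days 1, 4, 7 and 14. The highest quartile held 82.9, 255, 287 and 67.1 CPM on the same days. Every lowest quartile was above every highest quartile, and on days 4, 7 and 14 the lowest quartile alone held 74.5%, 70.4% and 74.8% of all Col1a1 UMIs of the section, against 43.7% on day 1. The fold of lowest over highest quartile was 4.19 (95% interval 3.64 to 4.85), 34.4 (32.3 to 36.8), 40.0 (37.2 to 43.1) and 20.5 (18.1 to 23.2) from the earliest to the latest section. These intervals, like all intervals below, cover counting error only. How many of all genes tested had every lowest quartile above every highest quartile was not counted, which holds for the genes below too. The day 1 contrast was smaller when spots were ranked on 4 other cardiomyocyte genes (Tnnt2, Actc1, Tnni3 and Tnnc1). Col1a1 then stood at 332 CPM in the lowest and 129 in the highest quartile of day 1, and Col5a1 at 120 and 62.9.

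Col1a2, the α2 chain, followed the same course. Its lowest quartile held 521, 10716, 10338 and 2179 CPM on days 1, 4, 7 and 14, and its highest quartile 130, 267, 255 and 126. The 2 ranges did not overlap, and the folds were 4.02, 40.1, 40.6 and 17.3. Col3a1, the chain of collagen III, had 794, 12725, 11969 and 3263 CPM in the lowest quartile and 229, 292, 414 and 287 in the highest. Its folds of 3.47, 43.6, 28.9 and 11.4 were largest on day 4. On day 1 its second quartile, with 776 CPM (745 to 808), could not be told from its lowest quartile (761 to 828), whereas Col1a1 already differed between them, at 226 and 347.

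The collagen V chains, which set the diameter of collagen I fibrils, showed the same order at lower counts. Col5a1 stood at 140, 1615, 1479 and 250 CPM in the lowest quartile on days 1, 4, 7 and 14 and at 33.7, 50.6, 59.9 and 39.7 in the highest. Col5a2 stood at 127, 1389, 1098 and 236 in the lowest quartile and at 33.0, 30.0, 36.1 and 27.6 in the highest. Neither chain's ranges overlapped, a separation for which the share over all genes was not counted. The folds of lowest over highest quartile were 4.14, 31.9, 24.7 and 6.28 for Col5a1 and 3.85, 46.3, 30.4 and 8.54 for Col5a2.

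Collagen VI behaved less uniformly. Col6a1, the α1 chain, had 68.0, 402, 626 and 261 CPM in the lowest quartile on days 1, 4, 7 and 14, and 64.0, 32.4, 80.2 and 62.6 in the highest. Col6a2, the α2 chain, had 81.5, 447, 734 and 273 in the lowest quartile and 86.0, 34.2, 104 and 67.1 in the highest. On day 1 neither chain differed between these quartiles beyond counting error, the folds being 1.06 (0.862 to 1.31) for Col6a1 and 0.947 (0.787 to 1.14) for Col6a2, and for both the ranges over days overlapped. Col6a3, the long α3 chain, did differ on day 1, with 129 CPM in the lowest and 36.1 in the highest quartile, a fold of 3.58 (2.87 to 4.50). Ranked on the 4 other cardiomyocyte genes, Col6a3 stood closer on that day, at 108 and 55.7 CPM. Its lowest quartile then held 469, 673 and 157 on days 4, 7 and 14 and its highest 25.0, 45.7 and 38.3, without overlap. All 3 chains had their highest level in the lowest quartile on day 7.

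**Figure D1:**
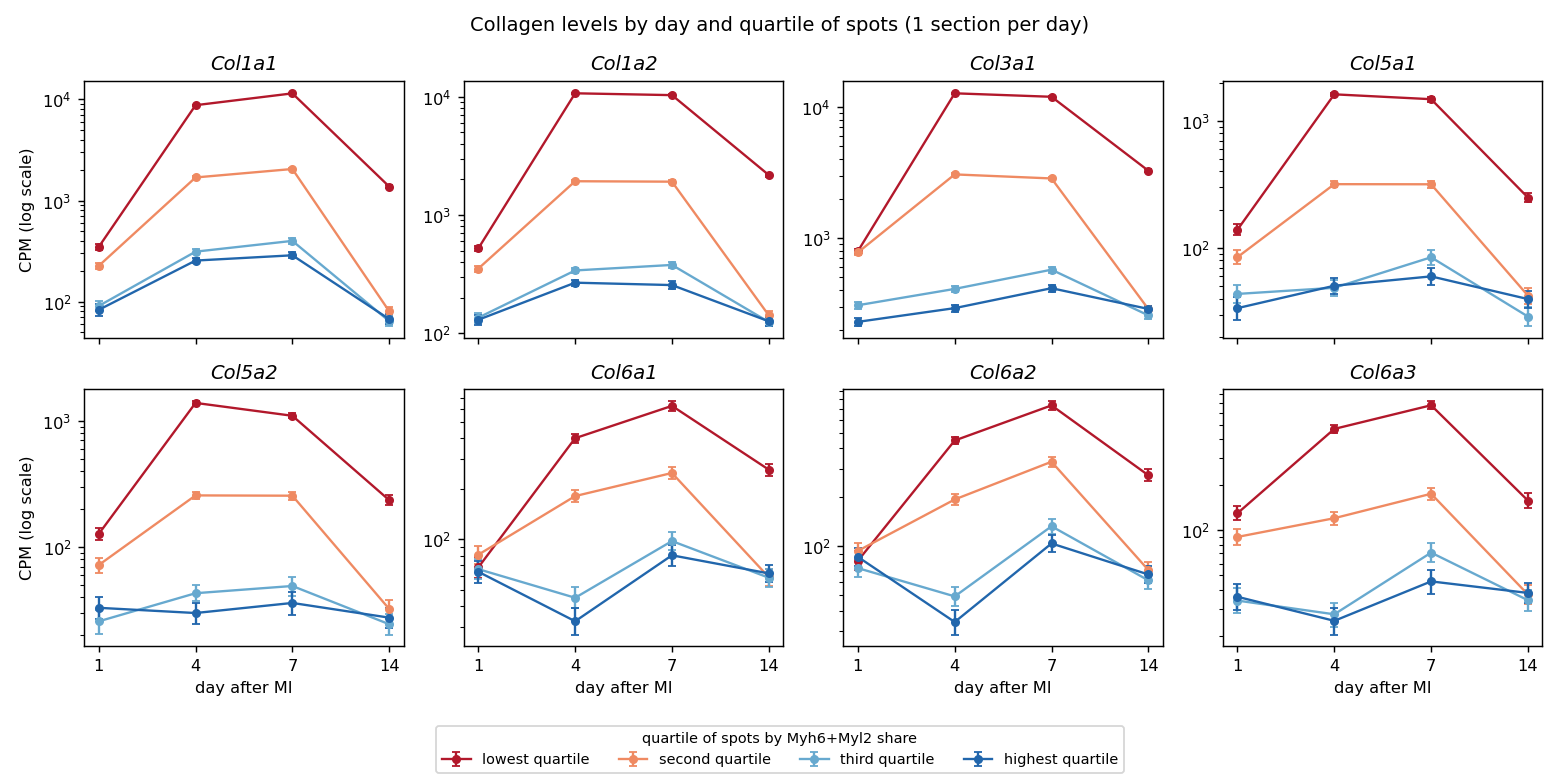
CPM (log scale, each panel with its own range) of the 8 collagen genes by day after MI, with a line for each quartile of spots ranked on Myh6 and Myl2 share; bars are exact 95% Poisson intervals and each point is 1 section. The lowest quartile of Col1a1 reaches 8772 and 11484 on days 4 and 7, while Col6a1 and Col6a2 start on day 1 with all quartiles close together.

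The average difference over the 4 sections was tested with edgeR's quasi-likelihood test on the 16 sums of section and quartile. The section was a block, and TMM scaling was used, which centres the bulk of the genes. A call thus does not require a difference in every section. Col6a1 and Col6a2 were called with day 1 folds of 1.06 and 0.947, and the skeletal muscle gene Myh1 with 0 UMIs on days 1, 4 and 14. All 8 genes were higher in the lowest than in the highest quartile, where 35.2% of the 4769 genes tested were higher and 67.7% were called in either direction. Their median log2 fold change was 3.39, against 0.05 over all genes tested. Of the genes called 52.0% were higher, and 73.3% when scaled to total UMIs without TMM, where all 8 collagen genes were higher too. Because the quartiles were ranked on cardiomyocyte transcripts, a gene of another cell type can gain share in the lowest quartile in part by construction. Some markers of other cell types were nevertheless lower there, as given below. A larger number of cells that make a gene cannot be told apart from more RNA per cell. By size the genes fell in the order collagen I, III, V and VI. The log2 fold change (± standard error) was 3.99 ± 0.53 for Col1a1 (edgeR adjusted p = 8.38e-05), 3.94 ± 0.54 for Col1a2 (9.53e-05) and 3.64 ± 0.58 for Col3a1 (0.000202). It was 3.51 ± 0.49 for Col5a2 (edgeR adjusted p = 0.000103) and 3.26 ± 0.47 for Col5a1 (0.000118). Within collagen VI it was 2.62 ± 0.36 for Col6a3 (edgeR adjusted p = 9.82e-05), 1.88 ± 0.45 for Col6a1 (0.00274) and 1.78 ± 0.45 for Col6a2 (0.00360). Only 32 of the genes tested had a larger log2 fold change than Col1a1. Neighbours in this order lay within a standard error of each other, except for the steps from Col5a1 to Col6a3 and from Col6a3 to Col6a1. Differences between members were not tested. The standard errors and p-values rest on the spread over all 4 quartiles (9 residual degrees of freedom). They do not measure how the lowest-to-highest difference alone varied between sections. That log2 fold ran from 0.09 to 3.63 for Col6a1 and from -0.08 to 3.71 for Col6a2, both lowest on day 1. No test on these differences alone was run.

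**Figure D2:**
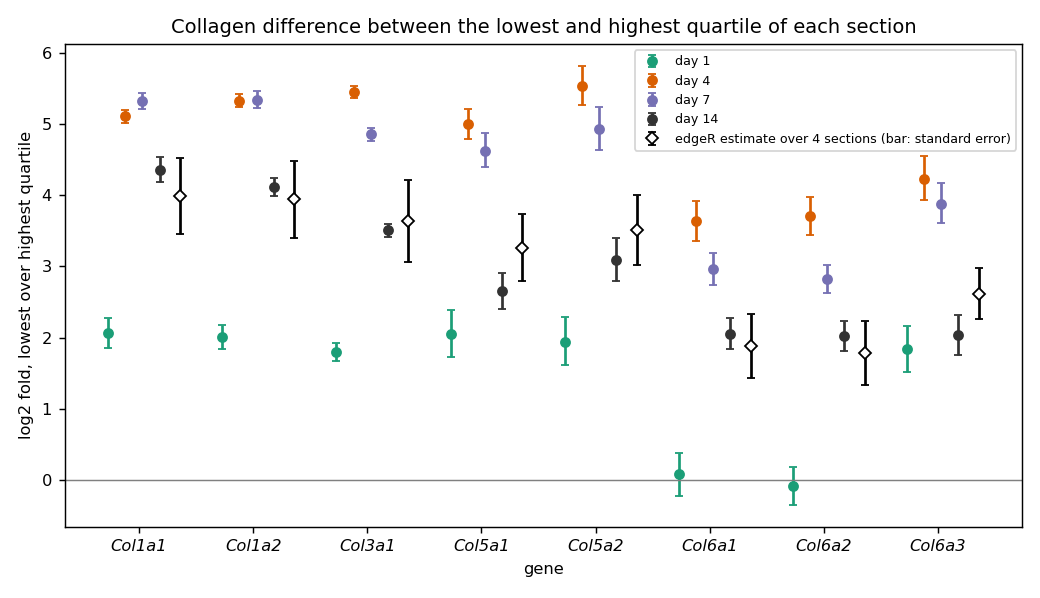
Log2 fold of the lowest over the highest quartile for each gene in each section, computed as CPM (circles, 95% counting intervals), with the edgeR estimate over the 4 sections (diamonds, bar of 1 standard error). Day 1 is the lowest circle for every gene, at about 0 for Col6a1 (fold 1.06) and Col6a2 (0.947), and the edgeR values, which are scaled by TMM, lie between those of day 1 and day 4.

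In the next quartile up, both collagen I chains were above the highest quartile beyond counting error on all 4 days, and the other chains on some days. In the second quartile, Col1a1 was 2.72-, 6.64-, 7.14- and 1.20-fold the highest quartile on days 1, 4, 7 and 14, and Col3a1 3.39-, 10.5-, 6.88- and 0.998-fold. For Col6a1 the folds were 1.26, 5.59, 3.10 and 0.9495. On day 14 the interval of the second-quartile fold included 1 for Col3a1, Col5a1, Col5a2 and the 3 collagen VI chains. Over the 4 sections 0 of the 8 genes passed the threshold (edgeR adjusted p from 0.0624 to 0.190, log2 fold changes from 0.96 to 1.96), where 3.33% of genes tested were higher and 3.52% were called in either direction. Without the day 14 section 6 of the 8 passed, all but Col6a1 and Col6a2, with log2 fold changes of 1.68 (Col6a3) to 2.46 (Col3a1). There 894 of the 4769 genes tested were called in either direction. DESeq2 on all 4 sections called the same 6, with adjusted p from 0.00280 to 0.00638, among 490 genes called. These 6 passed as well when spots were ranked without mitochondrial and member UMIs (edgeR adjusted p from 0.0276 to 0.0372), among 436 genes called. Col1a1 passed with a hemoglobin limit of 0.5% (edgeR adjusted p = 0.0434), for which the number of all genes called is not given here. In the third quartile 0 of 8 differed from the highest by edgeR (log2 fold changes from 0.08 to 0.33), where 0.0% of genes were called. Of all genes tested there, 27 had an unadjusted p under 0.05, and DESeq2 called 0.

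Finer ranking showed over how few of the ranked spots collagen levels were high on day 14. In deciles of spots, Col1a1 stood at 6842 CPM in the lowest decile of day 14, at 792 in the second and at 89.1 in the third, and between 62.5 and 83.3 in all others. On day 7 the lowest 3 deciles held 11037, 12136 and 7898 CPM and on day 4 10861, 9137 and 4750, so that high levels ran over more of the ranked spots. On day 1 the lowest 4 deciles held 396, 301, 331 and 280 CPM, without such a step. The highest decile held 254, 264 and 69.9 CPM of Col1a1 on days 4, 7 and 14. For Col3a1 the lowest decile held 15841, 12015 and 14755 CPM on these days and the highest 299, 370 and 311. Between these deciles the fold was thus largest on day 14 for Col1a1 and on day 4 for Col3a1. The steps of the other members on day 14 from the lowest to the second decile were 10408 to 1383 for Col1a2, 14755 to 2281 for Col3a1, 1107 to 164 for Col5a1 and 861 to 223 for Col6a1. The lowest decile of day 14 was shallow, with 305447 UMIs in 209 spots against 868219 in the 209 spots of the second. Deciles of deeper spots only were not made.

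Between days, the lowest deciles were set side by side for each chain. Col1a1 was 1.02-fold (0.987 to 1.05) on day 7 relative to day 4 and 0.620-fold (0.590 to 0.651) on day 14 relative to day 7. Its partner Col1a2 was 0.779-fold (0.757 to 0.801) and then 1.00-fold (0.962 to 1.05). Col3a1 was 0.758-fold (0.739 to 0.779) and then 1.23-fold (1.18 to 1.27). Col5a1 was lower at each step, 0.759-fold (0.704 to 0.817) and 0.733-fold (0.647 to 0.829). Col5a2 was lower at the first step only, 0.628-fold (0.575 to 0.685) and then 1.01-fold (0.886 to 1.16). By contrast Col6a1 was higher at each step, 1.48-fold (1.29 to 1.70) and 1.45-fold (1.24 to 1.69), going from 401 CPM on day 4 to 594 on day 7 and 861 on day 14. Col6a2 went from 454 to 674 and 946, while Col6a3 kept within counting error from day 7 to day 14 (0.959-fold, 0.809 to 1.13). The direction from day 7 to day 14 depended on the cut. In the lowest quartile Col3a1 was 0.273-fold (0.265 to 0.280) on day 14 relative to day 7. Col6a1 was 0.416-fold (0.373 to 0.463) there and Col6a2 0.372-fold (0.336 to 0.412). Each day is 1 mouse, and the lowest decile held 168 to 209 spots. On day 7 the lowest quartile also held 115 spots with skeletal muscle transcripts, and deciles without such spots were not made. Without them the day 7 lowest quartile was at 13586 CPM for Col3a1 and 1641 for Col5a1, above day 4 (12725 and 1615). With them it was below day 4, at 11969 and 1479. Col5a2 stayed below day 4 (1270 against 1389) and Col6a1 above it (746 against 402).

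**Figure D3:**
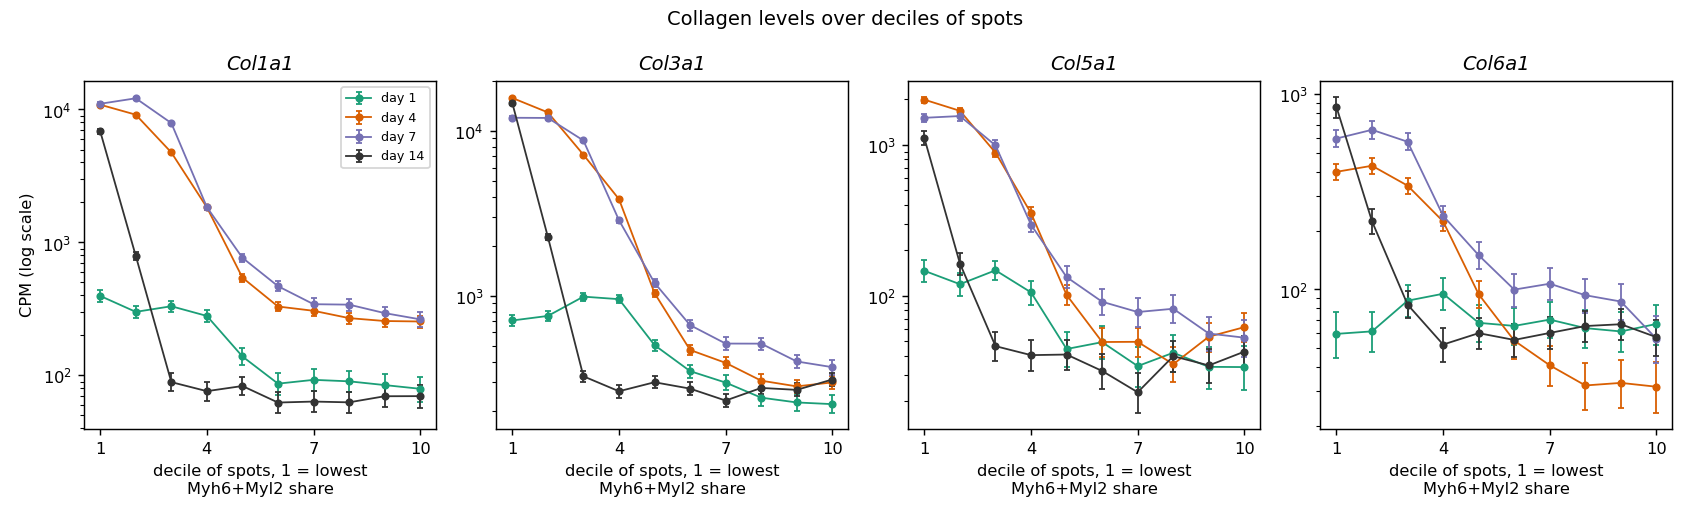
CPM (log scale, each panel with its own range) of Col1a1, Col3a1, Col5a1 and Col6a1 over deciles of spots from the lowest to the highest Myh6 and Myl2 share, a line per day; bars are exact 95% Poisson intervals. Day 14 falls from 6842 to 792 and 89.1 for Col1a1 over the first 3 deciles, and in the lowest decile Col6a1 is highest on day 14 (861).

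From day 1 to day 4 all 8 genes were higher in the lowest quartile, collagen I most and collagen VI least. The fold was 25.2 (23.7 to 27.0) for Col1a1, 20.6 (19.5 to 21.7) for Col1a2, 16.03 (15.3 to 16.7) for Col3a1, 11.6 (10.4 to 12.9) for Col5a1 and 10.9 (9.79 to 12.2) for Col5a2. For the collagen VI chains it was 5.91 (5.06 to 6.94) for Col6a1, 5.48 (4.75 to 6.35) for Col6a2 and 3.62 (3.22 to 4.09) for Col6a3. The highest quartile, where cardiomyocyte transcripts were most abundant, moved differently between the same days. There Col1a1 was 3.07-fold (2.67 to 3.55) and Col1a2 2.06-fold (1.83 to 2.32) higher on day 4. Col6a1 was 0.506-fold (0.400 to 0.639) and Col6a2 0.398-fold (0.320 to 0.494), that is lower on day 4. On day 14 the highest quartile was within counting error of day 1 for Col1a2 (0.970-fold, 0.849 to 1.11) and Col6a1 (0.978-fold, 0.807 to 1.19). The same held for Col5a1, Col5a2 and Col6a3. It was lower than on day 1 for Col1a1 (0.809-fold, 0.679 to 0.965) and Col6a2 (0.780-fold, 0.656 to 0.929), and higher for Col3a1 (1.25-fold, 1.14 to 1.38). These day 1 to day 14 comparisons depended on the ranking. Ranked on the 4 other cardiomyocyte genes, the highest quartile was lower on day 14 for all 8 genes. Col1a2 then stood at 209 CPM on day 1 and 128 on day 14, Col3a1 at 377 and 261, and Col6a1 at 75.9 and 64.3. Intervals for that ranking were not made.

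The 2 chains of collagen I differed less in their proportion between the quartiles of a section than between sections. These are ratios of captured molecules, not divided by transcript length, and capture can differ between transcripts, so that their change is more informative than their size. On days 1, 4, 7 and 14 the Col1a1:Col1a2 ratio over the whole section was 0.656 (0.621 to 0.693), 0.836 (0.824 to 0.848), 1.10 (1.08 to 1.12) and 0.606 (0.582 to 0.630). Within day 7 the quartiles lay between 1.06 and 1.13, within day 1 between 0.639 and 0.670, within day 4 between 0.819 and 0.954 and within day 14 between 0.516 and 0.631. Lowest minus highest quartile, the log2 ratio differed by 0.02 on average (SD 0.19, n = 4 sections, from -0.22 to 0.24, exact two-sided sign-flip permutation p = 0.75). With 4 sections this test cannot give a p below 1 in 8, so no ratio could pass 0.05, and 6 ratios were compared.

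The Col1a1:Col3a1 ratio, collagen I against collagen III, varied both between days and between quartiles. On days 1, 4, 7 and 14 it was, in the lowest quartile, 0.438 (0.405 to 0.473), 0.689 (0.678 to 0.701), 0.959 (0.939 to 0.980) and 0.421 (0.403 to 0.440). In the highest quartile it was 0.362, 0.874, 0.694 and 0.233. Collagen I thus weighed more against collagen III in the lowest than in the highest quartile on days 1, 7 and 14 and less on day 4. The mean log2 difference was 0.31 (SD 0.50, n = 4 sections, from -0.34 to 0.85, exact permutation p = 0.375, Benjamini-Hochberg adjusted 0.45). The lowest decile gave 0.558, 0.686, 0.919 and 0.464 on days 1, 4, 7 and 14.

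The chain ratios within collagens V and VI were compared in the same way. Col5a1:Col5a2 was 1.18, 1.19, 1.35 and 1.17 over the sections of days 1, 4, 7 and 14, with a mean log2 difference between quartiles of -0.29 (SD 0.28, n = 4, exact permutation p = 0.25). That difference was 0.10 (-0.21 to 0.42) on day 1 and below 0 beyond counting error on the later days, at -0.53 (-0.77 to -0.30), -0.30 (-0.57 to -0.04) and -0.44 (-0.71 to -0.18). Col6a1:Col6a2 was 0.837, 0.914, 0.795 and 0.922, with a mean log2 difference of 0.07 (SD 0.11, n = 4, exact permutation p = 0.375) and an interval that included 0 in each section. Over the days 1, 4, 7 and 14 Col6a1:Col6a3 in the lowest quartile was 0.525 (0.438 to 0.629), 0.857 (0.790 to 0.929), 0.931 (0.850 to 1.02) and 1.66 (1.45 to 1.91), against 1.77, 1.29, 1.76 and 1.63 in the highest quartile. The log2 difference was -1.75, -0.60, -0.92 and 0.02 (-0.22 to 0.26 on day 14), with a mean of -0.81 (SD 0.74, n = 4, exact permutation p = 0.25), and the α3 chain thus did not differ in proportion beyond counting error on day 14.

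Relative to collagen I, collagen VI was lowest in the lowest quartile of every section. The ratio of collagen VI to collagen I UMIs was 0.321, 0.0676, 0.0932 and 0.194 in the lowest quartile on days 1, 4, 7 and 14 and 0.875, 0.176, 0.424 and 0.871 in the highest. The log2 difference was negative in 4 of 4 sections, from -2.19 to -1.38 (mean -1.79, SD 0.44, n = 4, exact permutation p of 1 in 8, the smallest this test can give, Benjamini-Hochberg adjusted 0.45).

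**Figure D4:**
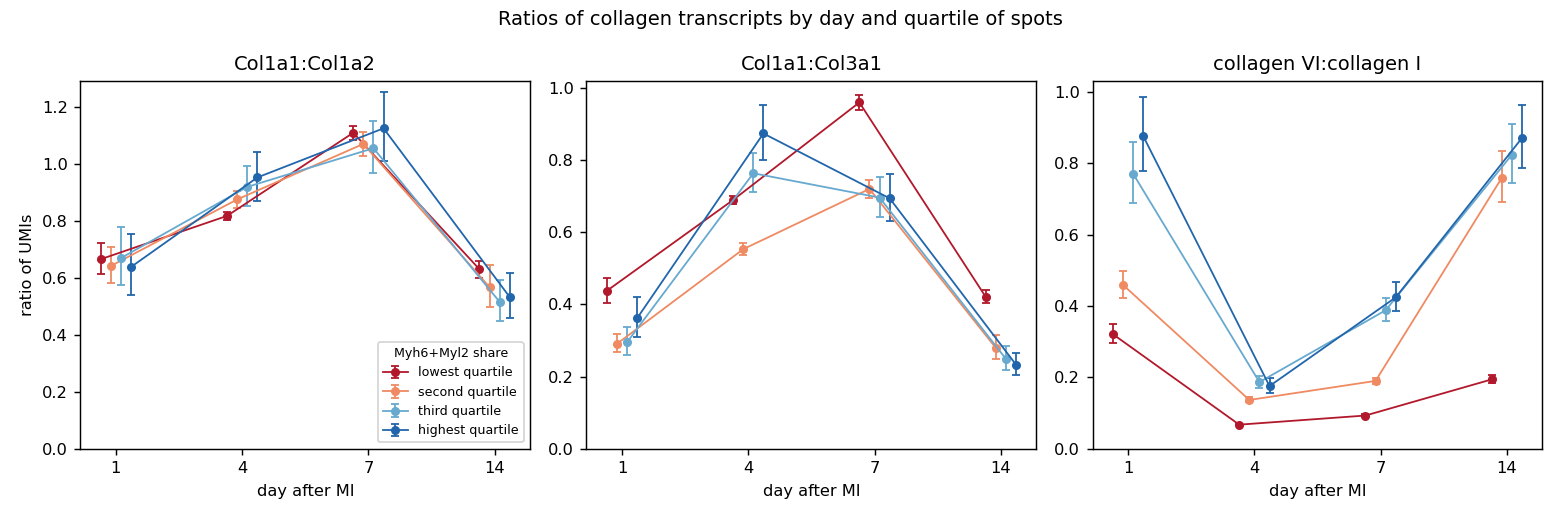
Ratios of UMIs, Col1a1:Col1a2, Col1a1:Col3a1 and collagen VI to collagen I (sums over their chains), by day after MI and quartile of spots; bars are exact 95% intervals and each vertical axis starts at 0. The quartiles lie close together for Col1a1:Col1a2, while the collagen VI to collagen I ratio is lowest in the lowest quartile on every day (0.0676 on day 4).

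The make-up of the collagen UMIs followed from these ratios. In the lowest quartile collagen I made up 39.3%, 53.3%, 56.8% and 44.5% of the UMIs of the 8 genes on days 1, 4, 7 and 14, collagen III 36.0%, 34.8%, 31.2% and 40.8%, collagen V 12.1%, 8.22%, 6.71% and 6.07%, and collagen VI 12.6%, 3.60%, 5.29% and 8.64%. Collagen V thus had its largest share there on day 1. In the highest quartile collagen VI made up 26.8%, 9.30%, 17.9% and 23.5%. The 8 genes together were 0.221%, 3.65%, 3.84% and 0.799% of all UMIs in the lowest quartile and 0.0695%, 0.0986%, 0.128% and 0.0716% in the highest.

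**Figure D5:**
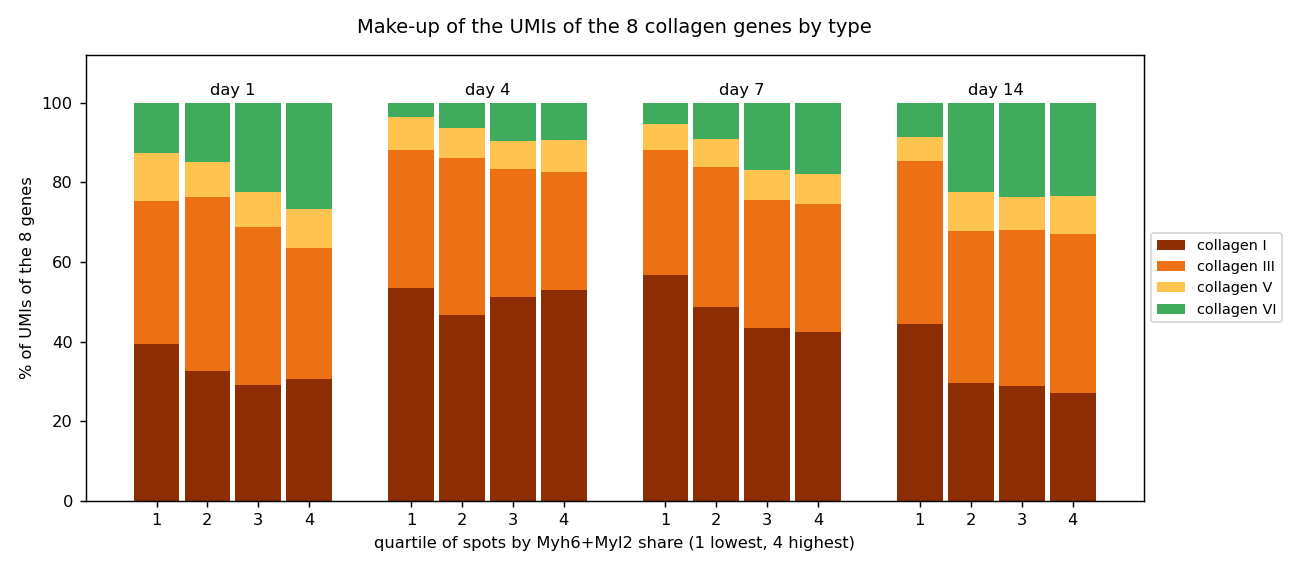
Percent of the UMIs of the 8 genes that came from collagens I, III, V and VI (stacked to 100%) in each quartile of each section. Collagen VI is 3.60% in the lowest quartile of day 4 and 26.8% in the highest quartile of day 1.

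The genes that build and bind these collagens were examined in 3 lists, to be read against the 35.2% of all genes tested that were higher and the 67.7% called in either direction. Of 27 collagen assembly symbols 21 were tested, 19 were higher in the lowest quartile and 0 lower (median log2 fold change 1.77, against 0.05 over all genes). The largest were the cross-linking enzymes Lox (5.40 ± 0.54, edgeR adjusted p = 2.04e-05), Loxl3 (3.80 ± 0.39) and Loxl1 (3.09 ± 0.41). The smallest change that passed was in Pcolce2 (0.54 ± 0.23, edgeR adjusted p = 0.0475), which enhances procollagen processing. The export factor Mia3 (0.29 ± 0.13) and the prolyl hydroxylase subunit P4ha2 (0.17 ± 0.12) did not pass the threshold. Of 16 partner collagens 9 were tested and 9 were higher, led by Col12a1 (5.63 ± 0.41) and Col16a1 (3.56 ± 0.50), which associate with fibrils, and the network-forming Col8a1 (3.67 ± 0.38). The basement membrane chains Col4a1 (1.36 ± 0.29) and Col4a2 (1.43 ± 0.27) and Col15a1 (1.47 ± 0.43) had the smallest values of these. Of 18 collagen-binding genes 11 were tested, 8 were higher and 0 lower. Fibronectin (Fn1, 4.65 ± 0.46), periostin (Postn, 4.16 ± 0.51) and Sparc (2.99 ± 0.40) were the largest, and decorin (Dcn, 0.57 ± 0.37), Ddr1 (0.36 ± 0.18) and the integrin subunit Itga1 (0.31 ± 0.14) did not pass.

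Across the 16 sums of section and quartile, the levels of the members followed each other, with Pearson's r of log2(CPM + 1) from 0.886 (Col6a2 with Col1a1) to 0.994 (Col6a1 with Col6a2). These sums share sections and cell make-up, so that r is a description. The genes most like the fibrillar chains by this measure were C1qb, a complement subunit, for Col1a1 (r = 0.987), C1qtnf6 for Col1a2 (0.993), the proteoglycan biglycan (Bgn) for Col3a1 (0.993) and Col5a2 (0.995), and Sparc, a collagen-binding matrix protein, for Col5a1 (0.994). Next came Cthrc1 and C1qtnf6 for Col1a1, C1qc and Sparc for Col1a2, Ccdc80 and Sparc for Col3a1, Hexa and Bmp1 for Col5a1, and Ecm1 and Hexa for Col5a2. Col6a3 was nearest to Loxl1 (0.994), Cmtm3 (0.993) and Fbn1 (0.991), whereas Col6a1 (Mxra7, Rin2 and Antxr1) and Col6a2 (Rin2, Fxyd6 and Mxra7) had other neighbours, at 0.973 to 0.979.

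Markers of several cell types moved with the quartiles, and their counts stand against the same 35.2% of genes higher and 67.7% called in either direction. The summed myofibroblast markers were at 494, 4644, 4560 and 686 CPM in the lowest quartile on days 1, 4, 7 and 14 and at 63.3 to 157 in the highest, and 4 of the 4 tested were higher (Postn counts in both this and the collagen-binding list). Macrophage markers were at 979, 6194, 4419 and 1567 in the lowest quartile and at 284 to 445 in the highest, with 5 of 5 tested higher. Fibroblast markers, of which 3 of 5 tested were higher (Pdgfra, Lum and Dpt) and Gsn was lower, were at 1053 in the lowest and 2980 in the highest quartile on day 1. Gsn was the largest part of these sums, at 499 and 2194 CPM. Dcn (286 and 533), Dpt (37.3 and 67.1) and Tcf21 (8.40 and 12.0) were also lower in the lowest quartile that day. Lum was about level (146 and 148) and Pdgfra was higher there (74.9 and 26.5). On day 14 the sums were at 3535 and 2251. Lum and Dcn of the fibroblast list also count in the collagen-binding list. Neutrophil markers were at 389, 69.6, 72.8 and 157 CPM in the lowest quartile and at 4.04 to 16.5 in the highest, and S100a9, the 1 tested, was higher. Of 4 endothelium markers tested, Pecam1 was higher (log2 fold change 0.47), Kdr and Fabp4 were lower (both -0.62) and Cdh5 did not pass. Of 3 smooth muscle and pericyte markers tested, Tagln was higher (2.35), while Rgs5 (-0.57) and Kcnj8 (-0.70) were lower. Adipocyte markers were at 302 in the lowest and 20.6 in the highest quartile on day 1 and at 769 and 9.98 on day 7, and mesothelium markers at 267 and 17.3 on day 7, but on day 4 they were at 6.16 and 20.0 (adipocyte) and 12.7 and 4.74 (mesothelium). Every marker of the fibroblast and macrophage lists had UMIs in every quartile, and Cthrc1 of the myofibroblast list was at 0 in the highest quartile of day 1. Mitochondrial transcripts made up 18.6%, 8.73%, 10.1% and 29.8% of UMIs in the lowest quartile on days 1, 4, 7 and 14, and 27.1%, 33.2%, 27.3% and 32.8% in the highest. The part of these markers and of the mitochondrial share in the collagen values was not tested. Spots with at least 10 UMIs of fast skeletal muscle markers were found on day 7 only, 118 of them, of which 115 fell in the lowest quartile. Without them the day 7 lowest quartile held 12324 CPM for Col1a1, 13586 for Col3a1 and 926 for Col6a2, and the edgeR log2 fold changes were 4.03 for Col1a1 and 1.87 for Col6a2.

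On day 14 the lowest quartile had a median of 2329.5 UMIs per spot, against 8278 in the highest. With only the spots of at least 1000 UMIs its level was lower, at 815 CPM for Col1a1, 1305 for Col1a2, 2003 for Col3a1 and 182 for Col6a1. With no hemoglobin filter it was higher, at 2096 for Col1a1, 3274 for Col1a2, 4917 for Col3a1 and 357 for Col6a1, and as a mean over spots, which weights shallow spots like deep ones, 3646, 5531, 8299 and 544.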

How the data were processed

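The authors deposited raw UMI counts per gene and spot for each of the 4 sections, made with Space Ranger 1.3.0 on mm10, and the submitters' processing notes also name Seurat 4.1.1. Visium captures RNA at its poly(A) tail. The labels give the first section as day 1. Spots over 1% hemoglobin and genes under 1000 UMIs were left out as in the study's methods, but its manual removal of edge spots was not repeated. The 1000 UMIs were counted over all quartiles, so that a gene high in the lowest quartile could reach them largely through it. No doublet caller was run, since a spot holds several cells. UMIs were summed per section and quartile and tested with edgeR 4.0.16 (R 4.3.3, quasi-likelihood, robust, TMM, section as a block, 9 residual degrees of freedom, Benjamini-Hochberg over 4769 genes, threshold 0.05). The test was tested on simulated data for the lowest against the highest quartile (4769 genes), where 180 of 200 genes changed by a log2 fold change of 1 were recovered with 8 false calls. In the sections 67.7% of the genes tested were called, and recovery and false calls with so many genes changed were not tested. Levels carry exact 95% Poisson intervals, and ratios and folds exact conditional ones. UMIs of spots from 1 mouse are not independent, so intervals cover counting error only. Spots are not replicates: the section was. Ratios were tested by exact sign flips over sections (scipy 1.17.1). Alternatives covered DESeq2 1.42.0, scaling, filters, ranking and each section left out. The members, lists and markers were chosen with earlier results of these data known. Named genes were the members, the 3 most correlated genes of each, and from each list the 3 largest rises, the 3 smallest changes and up to 5 genes not past the threshold. Of the 27 assembly symbols, 26 were found.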

Additional observations from a re-analysis of the deposited data

Results flagged for a closer look

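The Col1a1:Col1a2 ratio moved in opposite directions between the lowest and highest quartile on days 4 and 14, with log2 differences (lowest minus highest) of -0.22 (95% counting interval -0.31 to -0.13) and 0.24 (0.09 to 0.40). The Col1a1:Col3a1 ratio did the same, at -0.34 on day 4 against 0.27 on day 1, 0.47 on day 7 and 0.85 on day 14. Each day is 1 mouse, and the difference between days was not tested.

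The spots left out for over 1% hemoglobin also held collagen. The 8 genes together were at 925, 11051, 4426 and 3582 CPM in them on days 1, 4, 7 and 14, which was 0.691-, 1.16-, 0.480- and 2.14-fold the level of the spots kept. On day 14 the fold was largest for Col1a1 (2.46) and smallest for Col6a3 (1.26).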

How the results depend on the processing

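All 8 collagen genes stayed higher in the lowest than in the highest quartile, past the threshold, under each of the 15 alternatives to the edgeR fit, the log2 fold change of Col1a1 lying between 3.66 and 4.57 and that of Col6a2 between 1.41 and 2.34 (highest adjusted p 0.0395, without day 7). The number of genes called there was 6754 with a minimum of 10 UMIs per gene, against 3227, and 2471 to 3183 with a section left out. A minimum of 10 UMIs also lets more genes be tested, so that its counts here and below cannot be compared as shares. Scaling to total UMIs without TMM moved the median over all genes tested from 0.05 to 0.46 on the log2 scale and the share of higher calls from 52.0% to 73.3%. For the second quartile, where edgeR called 168 genes (1216 at an unadjusted p under 0.05), the count was 490 with DESeq2, 67 with total UMIs, 367 with a minimum of 10 UMIs, 0 without the section block, 30 with spots of at least 1000 UMIs, 48 without skeletal muscle spots, 2 when ranked on 4 other cardiomyocyte genes and 436 when ranked without mitochondrial and member UMIs. With a section left out it was 0 (without day 1 or day 4), 1 (without day 7) and 894 (without day 14). The cause was not tested. For the third quartile 0 genes were called throughout, and the log2 fold change was -0.012 for Col5a1 without day 1, and -0.046 and -0.015 for Col5a2 without day 4 and day 7. The Col1a1:Col1a2 log2 difference, near 0, turned to -0.060 without day 14 (0.09 without day 4), -0.0072 with no hemoglobin filter, -0.024 when ranked without mitochondrial and member UMIs and -0.20 as a mean over spots, and for Col1a1:Col3a1 it stayed between 0.13 and 0.53. Quartiles were compared within sections throughout. Between days, no paired analysis was possible because each day has 1 section, and its replicate number only names it. With 1 mouse per day, a difference between days cannot be told apart from one between mice or sections.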
